A study of Mus musculus with 4 samples.

Results

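The comparison set fibroblasts given miR-141 against fibroblasts given miR-200c, related members of the miR-200 family whose seeds differ at 1 base. The cells were immortalized mouse fibroblasts, transfected for 48 h and exposed to 400 µM hydrogen peroxide, an oxidant, for the last 2 h. Each miRNA was represented by 1 array, and the control arrays, 1 from cells given a control miRNA and 1 from cells given transfectant only, received the same peroxide. For the second of these the labels name the transfectant as the source and give the transfection as none. Genes were compared when their probe had a detection p-value under 0.01 on the miR-141 array or the miR-200c array, which left 7285 of 17711 genes with a named probe. With 1 array per group no test between the miRNAs was possible, and the differences were not checked in replicates.

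In one field the labels call the second miRNA miR-200, and elsewhere miR-200c. They do not give the origin of the fibroblast line, whether it was 1 clone, the arm or chemical form of each miRNA, or the amount transfected, and the level reached by each miRNA in the cells was not analysed here. The line was checked against 12 fibroblast markers. Col1a1 was detected on all 4 arrays, with log2 signals from 10.90 to 11.99, as were Vim, Dcn and S100a4. Pdgfrb was detected in the controls only, and Col1a2, Col3a1, Thy1, Pdgfra, Lum, Fap and Ddr2 were below detection on every array, so the labelled cell type rests on part of its markers. Of the markers of other cell types, 3 of 10 endothelial, 1 of 7 immune, 3 of 8 muscle, 1 of 6 adipocyte and 5 of 8 neuronal genes were detected on any array. For scale, 5 of the 12 fibroblast markers and 7734 of all 17711 genes were. The endothelial genes Esam, Kdr and Vwf and the immune gene Cd14 were detected, while Pecam1, Cdh5 and Ptprc of the same lists were not.

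miRNAs guide the RNA-induced silencing complex to messenger RNAs, mostly through pairing of the seed near their 5′ end with sites in the transcript, and the paired transcripts are degraded or less translated. The miR-200 family is abundant in epithelium and scarce in fibroblasts. It is best known for a double-negative loop with the repressors Zeb1 and Zeb2, which hold epithelial genes silent in mesenchymal cells. The family falls into a pair of seed groups, and the sequences of the main arms are shown because the seeds define those groups. The sequences are from RefSeq, assembly GRCm38.p6, read 5′ to 3′, with the seed, bases 2 to 8, in capitals.
mmu-miR-141-3p: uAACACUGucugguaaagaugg
mmu-miR-200a-3p: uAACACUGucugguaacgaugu
mmu-miR-200c-3p: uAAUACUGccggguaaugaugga
mmu-miR-200b-3p: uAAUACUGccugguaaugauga
mmu-miR-429-3p: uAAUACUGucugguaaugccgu
miR-141 shares its seed with miR-200a, and miR-200c shares its seed with miR-200b and miR-429. Counted from 1 at the 5′ end, miR-141 and miR-200c differ by C4U in the seed and by U9C, U11G and A17U outside it, over a shared length of 22 bases. A transcript site that pairs with the miR-141 seed reads CAGUGUU and one that pairs with the miR-200c seed reads CAGUAUU. Both miRNA genes lie on the minus strand of chromosome 6, with miR-141-3p at chr6:124717917-124717938 and miR-200c-3p at chr6:124718324-124718346, 385 bases apart. The labels do not exclude that the other arms, with the seeds AUCUUCC for miR-141-5p and GUCUUAC for miR-200c-5p, were present as well.

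The median raw signal lay between 42.8 and 49.5, and the mean raw signal between 150.9 with control miRNA and 245.5 with transfectant only. With median scaling in place of quantile normalization, control miRNA lay at a median of -0.80 log2 units from transfectant only. Between 6989 and 7152 genes were detected per array, 6485 of them on all 4. Signals below are normalized log2 values, and a difference is miR-141 minus miR-200c. Genes were called apart when the arrays stood at least 1.5-fold from each other, a log2 difference of 0.585. A signal below detection was first raised to the lowest detected signal of its array, 5.36 for miR-141 and 5.37 for miR-200c, so that a fold against it is a lower bound and is written "at least".

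Of the 7285 genes, 257 (3.53%) had the higher signal with miR-141 and 278 (3.82%) with miR-200c, together 7.34%. The counts became 135 and 147 without background correction, 149 and 157 with an offset of 50, and 166 and 132 with the authors' processed values, where the larger count was on the miR-141 side. Of the 257 and 278 genes, 246 and 252 were detected on both miRNA arrays. For scale, the control arrays were 1.5-fold apart in 394 of 7509 genes (5.25%) by the same rule, with 2.09% higher in control miRNA and 3.16% higher in transfectant only, so that many differences near 1.5-fold also arose between arrays without either miRNA. At larger sizes the pairs separated. Over the 6485 genes detected on all 4 arrays, the miRNA arrays were at least 1.2-fold apart in 2088 genes and the controls in 2379. At 2-fold the counts were 93 and 20, at 3-fold 18 and 0, and at 4-fold 3 and 0. These counts leave out genes below detection on any array, also where such a gene parted the controls. Pop4 was left out in this way, at 5.06, below detection, with transfectant only and 9.63 with control miRNA. Over the 6485 genes the log2 differences had a standard deviation of 0.33 for the miRNA pair and 0.30 for the control pair.

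**Figure D1:**
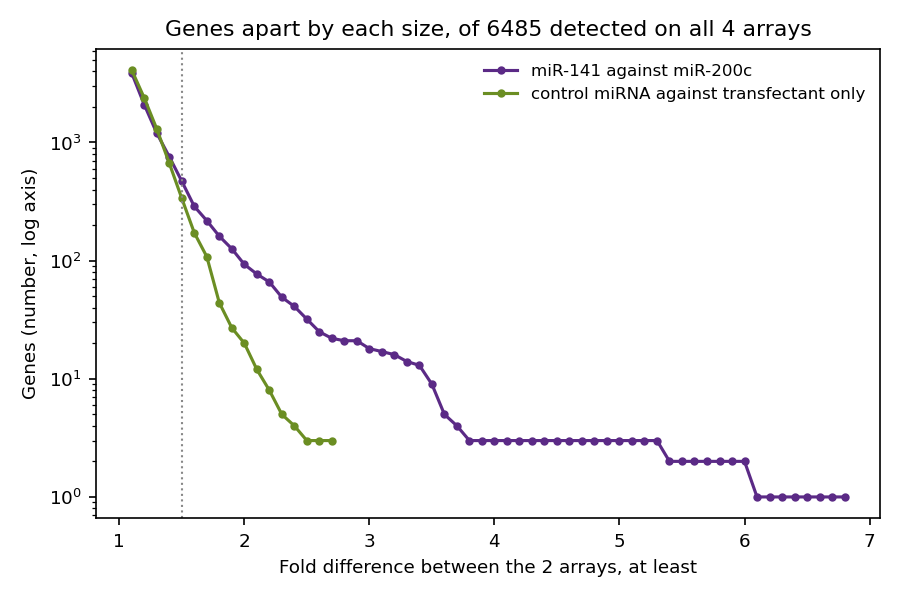
Number of genes (log axis) at least as far apart as the fold on the x axis, for miR-141 against miR-200c and for control miRNA against transfectant only, over the 6485 genes detected on all 4 arrays. The lines cross a little below the dotted mark at 1.5-fold and separate beyond it, with 93 and 20 genes at 2-fold.

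Around the size limit lay 193 genes between 1.5-fold and 1.6-fold apart and 315 between 1.4-fold and 1.5-fold. Tkt, an enzyme of the pentose phosphate pathway, was just inside at -0.59, and Tgfbr2, the type II TGF-beta receptor, was just outside at -0.58 and was named after its value was seen. For detection, 709 genes had a lowest p-value between 0.005 and 0.01 and 332 between 0.01 and 0.015. The text therefore turns on the genes with the largest differences and on gene groups, and gives the smaller ones as values.

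**Figure D2:**
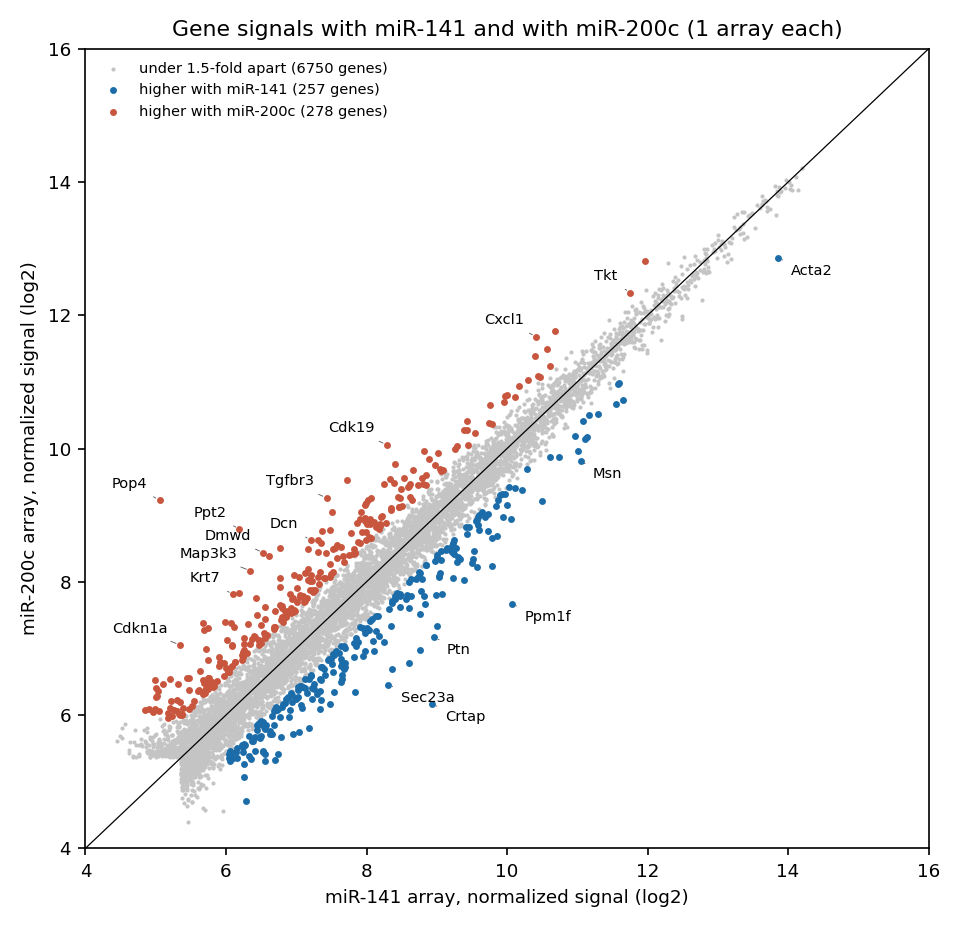
Normalized log2 signal of 7285 genes on the miR-141 array (x axis) and the miR-200c array (y axis), as measured, with 257 genes at least 1.5-fold higher with miR-141 and 278 higher with miR-200c in colour and the line of equal signal. Crtap and Ppm1f lie farthest below the line, and Pop4 and Ppt2 farthest above it.

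Both control arrays were then used to place each of the 535 genes. A miRNA array was called above or below the controls when it lay at least 1.5-fold above or below both of them, and near them otherwise. All placements share the same control arrays, so they are not independent of each other, and their counts move with the scaling of the arrays. Among all genes compared, miR-141 was above the controls in 2.07% and below them in 2.65%, and miR-200c was above in 3.40% and below in 3.83%. Of the 257 genes higher with miR-141, 101 had miR-200c below the controls and miR-141 near them, and 29 had miR-141 above and miR-200c near. Of the 278 genes higher with miR-200c, 81 had miR-200c above the controls and miR-141 near, and 53 had miR-141 below and miR-200c near. In 235 genes of both directions neither miRNA array lay that far outside both controls, and in 148 of these both controls lay between the miRNA arrays. The controls were themselves 1.5-fold apart in 52 of the 535 genes (9.72%).

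**Figure D3:**
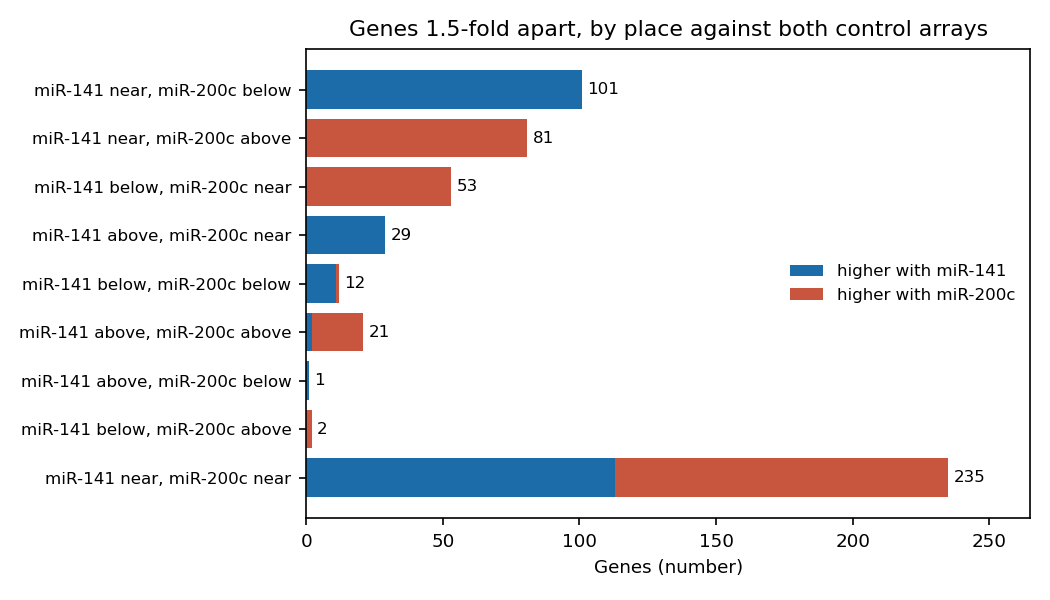
Number of genes at least 1.5-fold apart between miR-141 and miR-200c, by where each miRNA array lay against both control arrays, with colour for the array that was higher. The group with miR-200c alone below the controls holds 101 genes, that with miR-141 alone below holds 53, and in 235 genes neither array was 1.5-fold outside both controls.

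The transcripts low with miR-200c and not with miR-141 came first among the genes higher with miR-141. Crtap, which encodes a subunit of the collagen prolyl 3-hydroxylase complex, had log2 signals of 8.94 with transfectant only, 8.81 with control miRNA, 8.94 with miR-141 and 6.16 with miR-200c. Ppm1f, a protein phosphatase that acts on PAK kinases, stood at 10.18, 10.23, 10.07 and 7.66 in the same order. For both genes 3 arrays lay within 0.2 log2 units of each other and the miR-200c array alone was low. Sec23a, a subunit of the COPII coat of vesicles leaving the endoplasmic reticulum, stood at 8.23, 8.45, 8.31 and 6.45. Flt1, a receptor for VEGF, stood at 9.25, 8.97, 8.60 and 6.78, and Fhod1, a formin that assembles actin filaments, at 8.45, 8.66, 8.37 and 6.68. These 5 genes, all on the list of published miR-200c targets, were among the 7 highest differences, from 1.68 for Fhod1 to 2.78 for Crtap. That list was written from memory with earlier results of these data known, so the overlap is not independent support.

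Further genes showed the same arrangement without being on that list. Ptn, which encodes the growth factor pleiotrophin, stood at 8.53 with transfectant only, 7.91 with control miRNA, 8.97 with miR-141 and 7.17 with miR-200c, a 3.48-fold difference between the miRNAs. Gria1, a glutamate receptor subunit, stood at 9.36, 9.26, 9.00 and 7.34, and its 2 other detected probes differed by 1.23 and 1.26. Mprip, which ties myosin phosphatase to actin filaments, stood at 9.69, 9.78, 9.79 and 8.24, 2.92-fold apart. In Gria1 and Mprip too the controls and miR-141 lay within 0.4 log2 units. In Ptn the controls stood further apart, and the miR-141 signal was higher than both, though under 1.5-fold from the nearer one. Ndn, an imprinted growth suppressor, was 2.55-fold apart, Colgalt1, which adds galactose to collagen, 2.54-fold, the exonuclease gene Eri3 2.59-fold and Rnft2 2.45-fold. In Rnft2 the miR-141 signal also differed from transfectant only and control miRNA, by 0.69 and 0.55. Fhl1, a LIM-domain protein of contractile cells, was 2.44-fold apart, Sesn3, a sestrin, 2.37-fold, Cast, the inhibitor of calpains, 2.36-fold, and Asap1, a GTPase-activating protein for ARF, 2.26-fold. Arl2bp was 2.32-fold apart, Gamt, an enzyme of creatine synthesis, 2.28-fold, Nsmaf 2.27-fold and Kcnip1, below detection with miR-200c, at least 2.27-fold. Npc1, the lysosomal cholesterol transporter, was 2.40-fold apart, although 1 of its 2 other detected probes went the opposite way, at -0.27. Slit2, a guidance factor, was 2.25-fold apart, with 8.83 and 7.66 on the miRNA arrays, but its controls stood at 9.32 and 8.41.

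**Figure D4:**
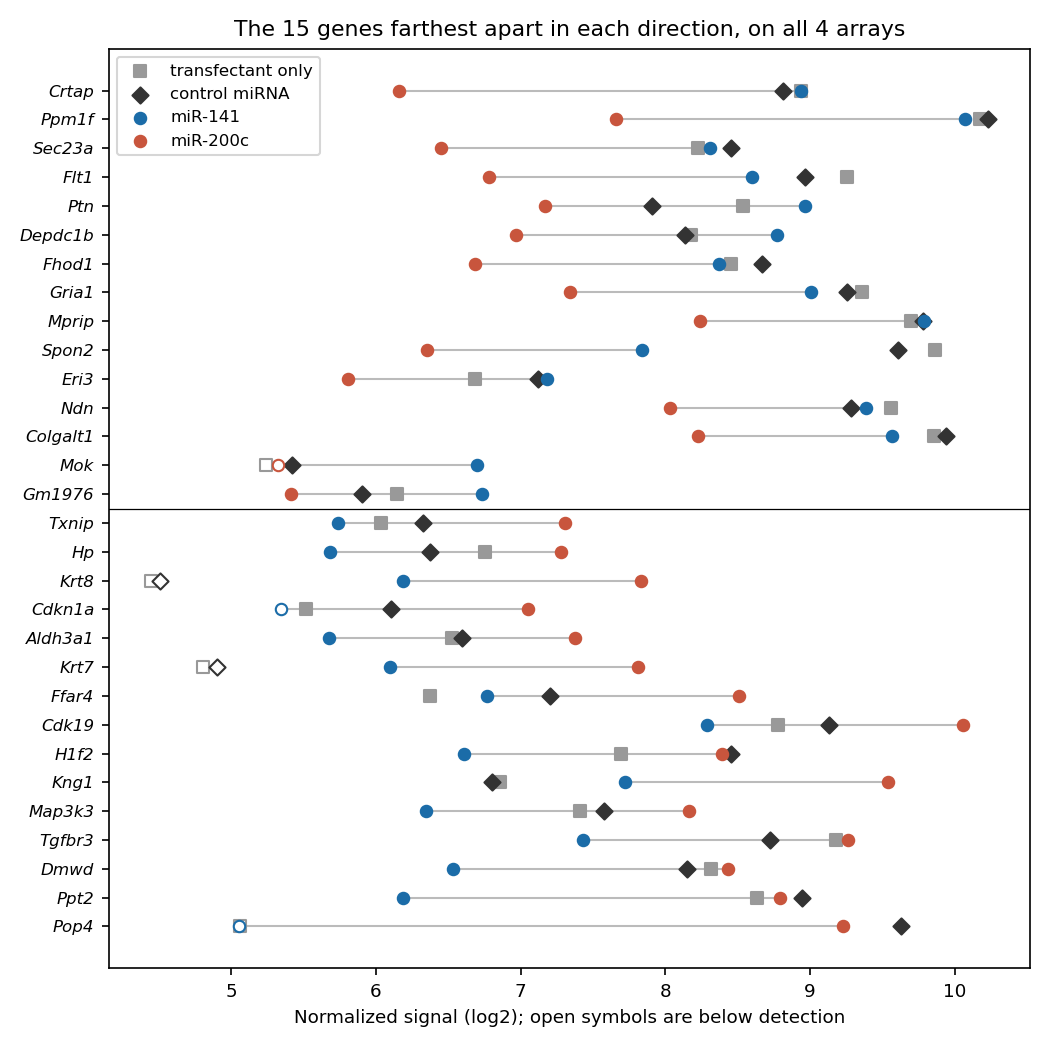
Normalized log2 signal on each of the 4 arrays for the 15 genes with the largest difference in each direction, those higher with miR-141 above the line and those higher with miR-200c below it. Open symbols are below detection, and a grey bar joins the miRNA arrays. In Crtap, Ppm1f, Sec23a and Mprip the miR-200c array alone was low, and in Ppt2, Dmwd and Tgfbr3 the miR-141 array alone was low.

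A smaller set was high with miR-141 and near the controls with miR-200c. Tmem231, part of the transition zone of cilia, stood at 6.63 with transfectant only, 6.82 with control miRNA, 8.10 with miR-141 and 6.96 with miR-200c. Cd34, a cell-surface sialomucin, stood at 6.46, 6.18, 7.47 and 6.17. In each of these genes the other 3 arrays lay within 0.4 log2 units. Mok, a kinase related to MAP kinases, was at least 2.52-fold higher with miR-141 than with miR-200c, where it was below detection. Gm1976 was 2.50-fold higher, 1700088E04Rik 2.36-fold, Rcan3, a regulator of calcineurin, 2.27-fold, Odf2, a protein of centrioles, 2.15-fold and Katnal2, a katanin-like protein, 2.10-fold. Tlcd3a and Garnl3 were both 1.99-fold higher.

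In 11 genes higher with miR-141, both miRNA arrays were below both controls and miR-200c was the lower one. Zeb1 stood at 9.05 with transfectant only, 8.78 with control miRNA, 7.64 with miR-141 and 6.50 with miR-200c, 2.21-fold apart between the miRNAs. Zeb2 was also below both controls with both miRNAs, at 6.95, 6.91, 5.63 and 5.51, but the miRNAs were only 1.09-fold apart. The Zeb pair thus split between the miRNAs in Zeb1 and not by 1.5-fold in Zeb2, whose miRNA signals lay close to the lowest detected signal. Spon2, a secreted matrix protein, stood at 9.86, 9.61, 7.84 and 6.35, and Tbx3, a T-box repressor, at 8.08, 8.12, 7.35 and 6.22. Ngef was 2.09-fold apart, Egr3, an immediate early transcription factor, and Aqp1, a water channel, both 1.89-fold. Ckb, the brain-type creatine kinase, was 1.65-fold apart, Dpysl3 1.56-fold and Egr2 1.55-fold. Ccn5, a matricellular protein of the CCN family, was the single gene of this arrangement that was lower with miR-141, at 8.52, 8.45, 6.80 and 7.63.

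Among the genes higher with miR-200c, those low with miR-141 alone began with Ppt2. Ppt2, a lysosomal thioesterase, stood at 8.63 with transfectant only, 8.94 with control miRNA, 6.19 with miR-141 and 8.79 with miR-200c, so that miR-200c lay between the controls and miR-141 was 6.07-fold below it. Dmwd stood at 8.31, 8.15, 6.53 and 8.44. Tgfbr3, the co-receptor betaglycan, which presents TGF-beta to its signalling receptors, stood at 9.18, 8.72, 7.43 and 9.26. In each of these genes miR-141 was the only low array. H1f2, a linker histone, stood at 7.69, 8.45, 6.61 and 8.39, and the core histone gene H2bc4 at 8.29, 9.06, 7.50 and 9.04, with controls that differed from each other by more than 0.7 log2 units in both. The acute-phase gene Hp was 3.02-fold lower with miR-141, at 6.75, 6.38, 5.68 and 7.28. Its miR-200c signal was also higher than both controls, though under 1.5-fold from the nearer one. The other detected probe of Hp differed by -0.69. The chemokine gene Cxcl15 was 2.66-fold lower with miR-141, the corepressor gene Brms1l 2.62-fold, Bloc1s4, part of a complex that forms lysosome-related organelles, 2.44-fold and Agfg2 2.34-fold. Chid1 was 2.50-fold lower, but its 2 other detected probes differed by -0.10 and 0.05. Mcm7, a subunit of the replicative helicase, was 1.84-fold lower at 10.21, 10.17, 9.39 and 10.27.

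Mapk14, which encodes the stress-activated kinase p38 alpha, belonged to the same arrangement. It stood at 9.11 with transfectant only, 8.88 with control miRNA, 7.97 with miR-141 and 8.96 with miR-200c. That is a 1.98-fold difference between the miRNAs, with miR-141 the only low array. Clock, a transcription factor of the circadian clock, stood at 9.77, 9.49, 8.85 and 9.60, 1.68-fold apart. Hmox1, the heme oxygenase induced by oxidants, stood at 10.29, 9.96, 8.49 and 9.39, lowest with miR-141 and 1.88-fold apart between the miRNAs. Its miR-200c signal was also lower than both controls, though under 1.5-fold from the nearer one. Tgfb2, another published miR-141 target, stood at 8.85, 8.74, 7.95 and 8.20 and was 1.18-fold apart, under the size limit.

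The genes high with miR-200c alone included Cdk19, a kinase of the Mediator complex, at 8.78 with transfectant only, 9.13 with control miRNA, 8.29 with miR-141 and 10.06 with miR-200c. Ffar4, a receptor for fatty acids, stood at 6.37, 7.20, 6.77 and 8.51. Cdkn1a, the cell cycle inhibitor p21, stood at 5.52, 6.11, 5.35 and 7.05, was below detection with miR-141, and was at least 3.23-fold higher with miR-200c. Txnip, an inhibitor of thioredoxin, stood at 6.03, 6.32, 5.74 and 7.31, 2.97-fold apart. In all these genes the miR-200c array was the highest and the miR-141 array was lowest or between the controls. Dcn, the matrix proteoglycan decorin, stood at 7.25, 6.47, 7.21 and 8.62, and its 2 other detected probes differed by -1.30 and -1.18. Cxcl1, a neutrophil chemokine, was 2.40-fold above its miR-141 signal, Pdxp, a phosphatase that acts on cofilin, 2.44-fold, E2f2, a cell cycle transcription factor, 2.31-fold, and Atf3, a stress-induced transcription factor, 1.80-fold.

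In 19 genes both miRNAs were above both controls and miR-200c was the higher one. Of these 19, 5 were on the epithelial list described below. Krt7, a keratin of simple epithelium, was below detection in both controls, at 4.80 with transfectant only and 4.90 with control miRNA, and reached 6.10 with miR-141 and 7.81 with miR-200c. Krt8, another keratin, stood at 4.44, 4.51, 6.18 and 7.83, and Cldn4, a tight junction claudin, at 4.64, 4.80, 6.44 and 7.50. For Krt7, Krt8 and Cldn4 the miRNAs were 3.28-fold, 3.14-fold and 2.08-fold apart. Llgl2, a polarity protein of the basolateral membrane, stood at 5.65, 5.85, 7.35 and 8.58. Kng1, which encodes kininogen, was 3.51-fold higher with miR-200c, Fam102a 2.51-fold, the surface antigen gene Psca 2.32-fold, the cytokine gene Il24 2.15-fold and the chemokine gene Cxcl16 2.08-fold. The opposite order was found for 2 genes. Ctsw, a cathepsin, stood at 6.02, 6.16, 8.25 and 7.10, and Rgs16, a regulator of G-protein signalling chosen once its values were known, at 5.58, 5.83, 7.06 and 6.42.

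A promoter view was added for the epithelial genes because Zeb1 and Zeb2 are known to bind E-box motifs of the letters CACCTG. The motif was searched on both strands, as CACCTG or CAGGTG, in RefSeq windows of GRCm38.p6 from 250 bases before to 50 after each start. Of 7 listed epithelial genes higher with miR-200c, 5 had a window in the table, and 4 of these 5 windows held the motif. It was found in 20.2% of all 32851 windows and in 1312 of 7711 windows of the genes compared, or 17.0%. For all genes higher with miR-200c it was in 49 of 297 windows, or 16.5%. For all genes higher with miR-141 it was in 40 of 308, or 13%. The placement against the controls was used only for genes at least 1.5-fold apart between the miRNAs. Among such genes with both miRNAs above the controls 8 of 17 windows held the motif. These 8 include the 4 epithelial windows, of Krt7, Krt8, Cldn4 and Map7. Among the other genes 1.5-fold apart, the motif was in 19 of 85 windows where miR-200c alone was above. It was in 14 of 113 where miR-200c alone was below, and in 7 of 65 where miR-141 alone was below. A match is a description of these letters and not a binding site, and no binding was measured. The windows of Krt7 (plus strand, chr15:101412153-101412452), Krt8 (minus strand, chr15:102004293-102004592) and Cldn4 (minus strand, chr5:134946885-134947184) are printed as examples that hold the motif, shown in capitals. Neither control array detected these genes. Spint1 and Map7 were also below detection in both controls, and their windows are not printed. The window of Spint1 held no match. The motif begins 44 bases before the start of Krt7, 111 before that of Krt8, and 14 before that of Cldn4, which also has a match after its start.
Krt7: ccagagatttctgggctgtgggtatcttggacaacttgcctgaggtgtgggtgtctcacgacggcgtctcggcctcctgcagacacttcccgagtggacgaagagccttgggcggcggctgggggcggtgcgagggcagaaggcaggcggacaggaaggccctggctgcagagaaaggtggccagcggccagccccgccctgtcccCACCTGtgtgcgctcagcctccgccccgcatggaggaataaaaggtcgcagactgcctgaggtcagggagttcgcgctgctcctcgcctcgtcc
Krt8: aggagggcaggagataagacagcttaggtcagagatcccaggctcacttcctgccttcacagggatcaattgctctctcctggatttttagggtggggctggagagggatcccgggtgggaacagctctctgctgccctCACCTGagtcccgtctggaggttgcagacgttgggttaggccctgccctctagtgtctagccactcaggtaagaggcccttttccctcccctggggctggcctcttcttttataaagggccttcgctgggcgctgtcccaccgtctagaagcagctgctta
Cldn4: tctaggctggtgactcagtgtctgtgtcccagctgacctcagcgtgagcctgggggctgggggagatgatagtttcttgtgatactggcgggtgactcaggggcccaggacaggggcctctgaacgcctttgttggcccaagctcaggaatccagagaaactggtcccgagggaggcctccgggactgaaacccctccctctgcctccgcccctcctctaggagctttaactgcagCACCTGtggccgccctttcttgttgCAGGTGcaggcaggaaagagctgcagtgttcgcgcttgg

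In 3 genes the miRNAs stood on opposite sides of the controls. Depdc1b, a DEP-domain protein expressed in dividing cells, stood at 8.18 with transfectant only, 8.14 with control miRNA, 8.77 with miR-141 and 6.97 with miR-200c. Map3k3, an upstream kinase of MAP kinase cascades, stood at 7.41, 7.58, 6.35 and 8.16, and Aldh3a1, an aldehyde dehydrogenase, at 6.53, 6.60, 5.68 and 7.38. In each of them the controls lay within 0.2 log2 units of each other and between the miRNA arrays.

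The largest difference of all belonged to Pop4, an RNase P subunit gene, and it also parted the controls. Its signals were 5.06 with transfectant only and 5.05 with miR-141, both below detection, and 9.63 with control miRNA and 9.23 with miR-200c. The miRNA arrays were at least 14.6-fold apart, Pop4 has no other detected probe, and its pattern does not separate either miRNA from the controls. Other genes also had neither miRNA array 1.5-fold outside both controls. Of these, Hs6st2, a heparan sulfate sulfotransferase, was 2.59-fold higher with miR-200c, at 9.57, 8.83, 8.40 and 9.77. The non-coding RNA Oip5os1 was 2.46-fold higher, Lbr, the lamin B receptor, 2.10-fold and Hbp1, a transcriptional repressor, 2.02-fold, while Cpeb4, below detection with miR-141, was at least 2.16-fold higher. In the other direction Smim15 was 2.19-fold higher with miR-141, Zfp661 2.12-fold, the lipid transfer gene Stard5 2.09-fold and Ankrd13d 2.02-fold.

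Gene lists were compared by counts and medians, each beside all 7285 genes. Those genes had a median difference of 0.01, and 3.53% were higher with miR-141 and 3.82% higher with miR-200c. The lists were chosen with earlier results of these data known, so their counts are descriptions and not independent support. The list of published targets for the miR-200c seed group had 8 of 20 members higher with miR-141 and 0 higher with miR-200c, with a median of 0.27, or 0.60 with undetected signals left as measured. The 8 were Crtap, Ppm1f, Sec23a, Flt1, Fhod1, Msn, Zeb1 and Lox. The lists overlap, and these genes are counted again below. Ppm1f, Fhod1 and Msn recur among actin and adhesion genes, and Crtap and Sec23a in collagen processing. Flt1 recurs among growth factor receptors, Lox among matrix genes and Zeb1 among published miR-141 targets. Msn, which encodes moesin, a linker of actin to the membrane, stood at 11.28, 10.86, 11.05 and 9.81, and its 3 other detected probes differed by 0.19 to 2.02. Lox, which crosslinks collagen, was 1.58-fold apart, with controls of 8.29 and 7.25. Fn1, at a difference of 0.27, did not pass.

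The list for the miR-141 seed group had 1 of 18 members higher with miR-141, which was Zeb1, and 6 higher with miR-200c, with a median of -0.27. The 6 did not share one arrangement. Mapk14 and Clock were below the controls with miR-141. Map2k4, a kinase upstream of JNK and p38, stood at 9.40, 9.01, 8.73 and 9.45, and Cdc25a, a cell cycle phosphatase, at 7.04, 7.48, 6.80 and 7.47, both with miR-141 lowest but under 1.5-fold from the nearer control. The bromodomain gene Brd3 stood at 10.70, 10.85, 10.56 and 11.50, so that it was the miR-200c array that left the controls. Yap1, the co-activator of the Hippo pathway, named after its values were seen, stood at 9.07, 9.11, 8.51 and 9.14. Keap1, the adaptor that directs NRF2 to degradation, was at 9.20, 9.36, 9.36 and 9.09, and Ctnnb1, which encodes beta-catenin, at 10.35, 9.81, 9.54 and 9.82, and neither was 1.5-fold apart.

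**Figure D5:**
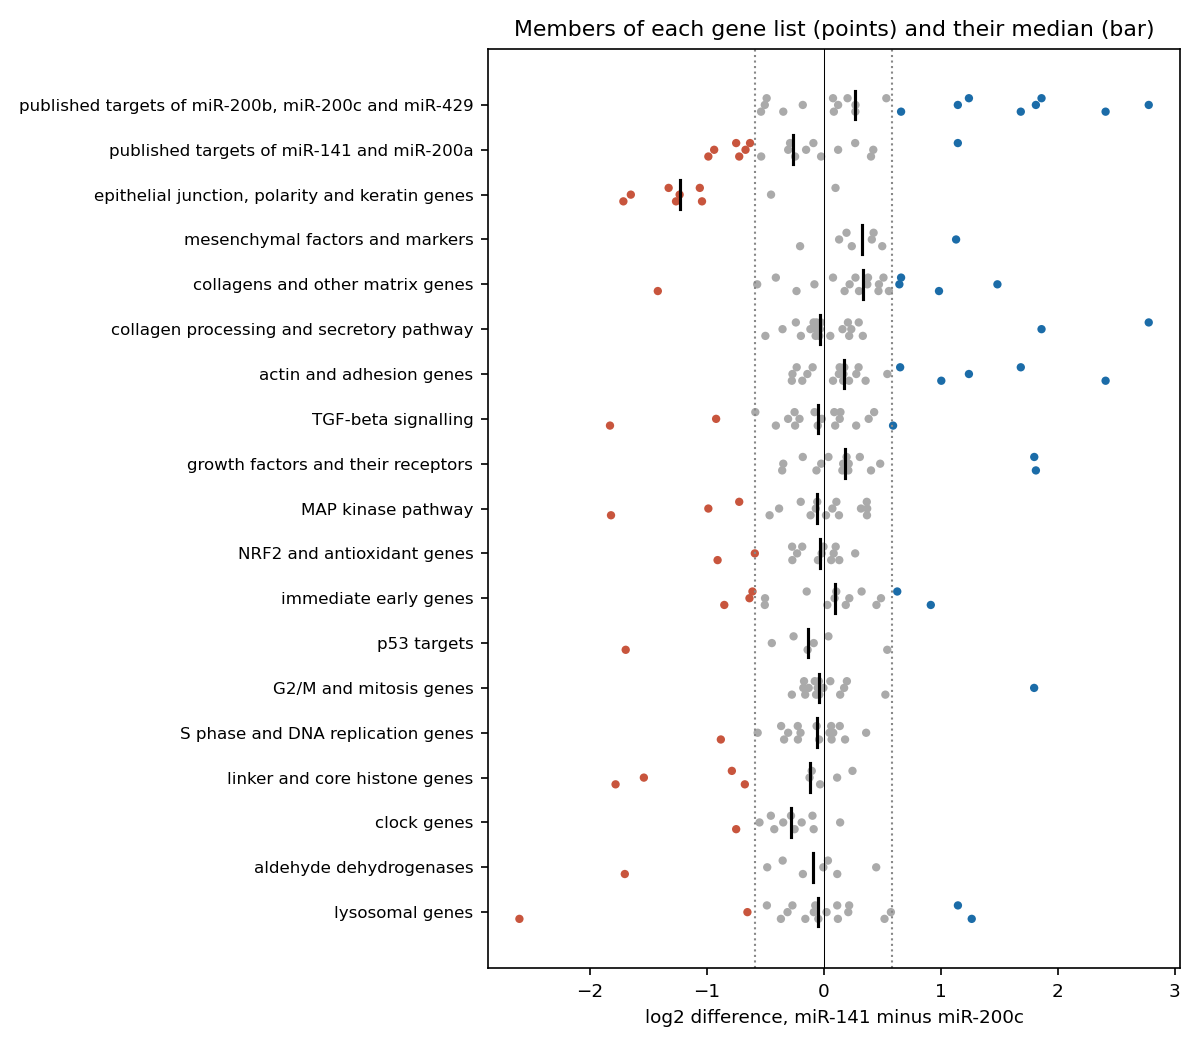
Log2 difference, miR-141 minus miR-200c, of the compared members of each gene list (points) with their median (black bar), where dotted lines mark 1.5-fold and colour marks members past it. The published miR-200c targets reach 2.78 on the miR-141 side, and 7 of 9 epithelial genes lie past the mark on the miR-200c side.

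Epithelial junction, polarity and keratin genes had 7 of 9 higher with miR-200c and 0 higher with miR-141, with a median of -1.23. That median became -0.45 at a detection limit of 0.05 and -0.009 over all members on the array. The list had 30 genes on the array, and most of these entered no comparison because they were below detection with both miRNAs, Cdh1, the E-cadherin gene, among them. The 9 that entered were detected with both miRNAs, whereas 2 and 4 were detected with transfectant only and control miRNA, so their count and median describe detected members only. Besides Krt7, Krt8, Cldn4 and Llgl2 the 7 included Krt19, at 5.70, 6.12, 6.43 and 7.76, Spint1, an inhibitor of matriptase, at 5.03, 5.13, 5.72 and 6.98, and Map7, a microtubule-associated protein named after its values were seen, at -1.04. Lamb3, a laminin chain of epithelial basement membranes, was also named after its values were seen. It was below detection with transfectant only, stood at 5.46 with control miRNA and was high with both miRNAs, at 8.07 and 8.52.

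Collagens and other matrix genes leaned the other way, with 4 of 20 higher with miR-141, 1 higher with miR-200c and a median of 0.34. The 4 were Spon2, Tnc, Lox and Col6a1, and the 1 was Dcn. Tnc, the matricellular protein tenascin C, stood at 9.28, 8.88, 9.28 and 8.30, and Col6a1 at 10.12, 9.69, 9.13 and 8.48. Mesenchymal factors and markers had 1 of 8 higher with miR-141, Tbx3, and a median of 0.33, while Vim, at a difference of 0.24, did not pass. Actin and adhesion genes had 5 of 22 higher with miR-141, 0 higher with miR-200c and a median of 0.17. These were Ppm1f, Fhod1, Msn, the smooth muscle actin gene Acta2, at 13.79, 13.78, 13.86 and 12.86, and Tln1, the integrin-binding protein talin, at 6.84, 7.03, 6.72 and 6.07. The 2 other detected probes of Acta2 differed by 1.39 and 1.65.

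In the list of collagen processing and the secretory pathway, Crtap and Sec23a were higher with miR-141. The remaining 19 genes were not called apart, and the list median was -0.03. Fkbp7 and P3h1, named after their values were seen, were below detection with miR-200c, so their differences of 0.33 and 0.30 were lower bounds. As measured, Fkbp7 differed by 1.13 and P3h1 by 0.39. Growth factors and their receptors had Flt1 and Ptn higher with miR-141 among 16. Of the TGF-beta pathway, Tgfbr3 and Tgfbr1, the type I receptor at 10.11, 9.56, 9.02 and 9.94, were higher with miR-200c, and Smad2, a signal transducer of the pathway, was higher with miR-141 at 0.59, among 19 genes with a median of -0.05. MAP kinase genes had Map3k3, Mapk14 and Map2k4 higher with miR-200c and 0 higher with miR-141 among 17, with a median of -0.05. Clock genes had 1 of 11 higher with miR-200c, Clock itself, and a median of -0.28, with 10 of the 11 differences below 0.

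Of 14 NRF2 and antioxidant genes, Hmox1 and Tkt were higher with miR-200c and the median was -0.03. Immediate early genes had Egr3 and Egr2 higher with miR-141 and Atf3, Jund and Ier3 higher with miR-200c among 16, with a median of 0.10. Jund was at 5.70, 5.94, 5.87 and 6.50, and Ier3 at 10.50, 10.71, 10.47 and 11.08. Of 7 p53 targets 1 was higher with miR-200c, Cdkn1a, and the median was -0.14. Cell cycle lists were nearly level. Depdc1b was the 1 of 17 mitosis genes past the limit, at a list median of -0.04, and Mcm7 the 1 of 17 replication genes, at -0.06. Histone genes had H1f2, H2bc4, H2ac19 and H2ac18 higher with miR-200c among 9, with a median of -0.12. H2ac18 and H2ac19 are near-identical copies whose probes may not tell them apart, and their controls were far apart, at 6.37 and 7.63 for H2ac18.

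Among 19 lysosomal genes, Ppt2 and Hexa, at 7.95, 8.07, 7.40 and 8.05, were higher with miR-200c, and Npc1 and Ctsw were higher with miR-141, with a median of -0.05. Aldehyde dehydrogenases had 1 of 8 higher with miR-200c, Aldh3a1, and a median of -0.09. Of the markers of other cell types, 2 passed, both higher with miR-200c. Vwf, an endothelial marker below detection with miR-141, was at 5.57, 5.53, 5.18 and 5.96, and Gap43, a neuronal marker, at 6.68, 6.53, 7.13 and 7.71. Cd14, the 1 immune marker detected, was at 6.53, 6.89, 7.48 and 7.68. The log2 of the summed signals of the fibroblast list ran from 13.56 with miR-200c to 14.03 with transfectant only. That of the neuronal list ran from 8.30 to 8.85 and was highest with miR-200c, that of the endothelial list from 8.31 to 8.47, that of the immune list from 7.82 to 8.38, that of the muscle list from 9.28 to 9.80 and that of the adipocyte list from 7.21 to 7.39. The part of other cells in the differences was not tested.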

How the data were processed

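Biotinylated cRNA of total RNA was measured on Illumina bead arrays. The deposited non-normalized table held average signal intensity per probe, on a linear scale, and a detection p-value against each array's own background, per the file headers. GenomeStudio is named in the submitters' processing notes. The authors' processed intensity table, whose method is not given in the sources used here, is for each array a straight line of its raw signals and was used as an alternative. The number of value columns without a sample was 0.

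The 4 arrays were normalized together by neqc of limma 3.58.1 in R 4.3.3, which models the background through the detection p-values, adds an offset of 16, equalizes the distributions and takes log2. The offset compresses dim differences. Python 3.11.15 served for everything after that, with matplotlib 3.10.9 for drawing, pandas 2.3.3 for tables and numpy 2.4.6. Of 46632 probes 29976 had 1 gene symbol, 10 several and 16646 none, and 29921 were found by Entrez identifier in RefSeq GRCm38.p6. Each gene was read from its brightest probe, by the mean of all arrays. The steps were tested on simulated arrays with known changes.

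The members and the 25 gene lists were chosen with earlier results of these data known, and the target lists were written from memory of the literature. Named genes were the 30 farthest apart each way, the 10 farthest in each place against the controls, up to 6 passing members per list and a fixed set led by Zeb1, Zeb2, Mapk14 and Crtap. Alternatives varied background, scaling, offset, detection limit, treatment of undetected signals, probe choice and size. The number of arrays limits the precision. Seed matches in transcripts were not analysed here. A gene that the naming rule selected is not reported here.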

Additional observations from a re-analysis of the deposited data

How the results depend on the processing

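No paired analysis was possible because each group had 1 array, and for the same reason no replicate could be left out. The placement against the controls was recomputed under alternatives chosen after seeing the data. The 257 and 278 genes higher with miR-141 and miR-200c became 135 and 147 without background correction, 166 and 132 with the authors' processed values, 149 and 157 with an offset of 50, and 50 and 65 at a size of 2-fold. A larger offset shrinks dim differences by construction, and for the others apart from the size the cause was not tested. Under the other alternatives these counts stayed within 1.5 times. The genes with miR-200c alone below, miR-141 alone below, miR-200c alone above, miR-141 alone above and neither outside the controls numbered 57, 33, 41, 15 and 118 without background correction, 65, 30, 37, 17 and 131 with the authors' values, 60, 35, 43, 15 and 132 with an offset of 50, and 53, 23, 52, 16 and 377 with median scaling. Median scaling moved all genes by a median of 0.41 for miR-141 and 0.40 for miR-200c against control miRNA and by -0.37 and -0.38 against transfectant only, but by 0.01 between the miRNAs. The epithelial median of -1.23 became -0.83 without background correction, -0.80 with the authors' values, -0.89 with an offset of 50, -0.45 at a detection limit of 0.05 and -0.009 over all members on the array, most of them at the bound on both miRNA arrays. With no detection filter the medians of the mesenchymal, fibroblast and endothelial lists were also -0.009. The median of published miR-200c targets was 0.60 with undetected signals as measured. Of 111 named genes past 1.5-fold, 91 stayed past it in the same direction under all 11 alternatives and 0 reversed. The detection filter was not applied to single genes, so requiring detection in both miRNA arrays, or no filter, could not change these counts. Most of the named genes were picked for large differences on these same arrays, so the counts describe the processing only. Named genes that fell under 1.5-fold in at least 1 alternative included Lox, Tln1, Egr2, Ckb, Aqp1, Dpysl3, Slit2, Npc1, Chid1, Smad2, Tkt, Hexa, Cdc25a, Jund, Ier3, Gap43, Vwf, H2ac18 and H2ac19.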

Other observations

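Probes without a single gene symbol entered no comparison above. Of 2508 such probes detected on either miRNA array, 74 were higher with miR-141 and 86 with miR-200c by 1.5-fold, or 6.38%, and their transcripts are not named here.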
